A study of Mus musculus with 17 samples.

Results

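The nuclear-encoded subunits of the mitochondrial respiratory chain were represented by 100 probe sets for 73 genes on arrays of mouse brain RNA. They were chosen by gene symbol: a probe set was a member when its only symbol in the platform annotation began with Nduf, Sdha to Sdhd, Uqcr, Cox4 to Cox8 or Atp5. The array held 12488 probe sets, of which 10855 had 1 symbol. Complex I had 42 member probe sets for 31 genes, complex II 6 for 6, complex III 7 for 7, complex IV 23 for 15 and ATP synthase (complex V) 22 for 14. The rule also took in 6 probe sets for 4 assembly factors, Ndufaf1, Ndufaf4, Sdhaf1 and Sdhaf2, which help to build a complex without being part of it. Another 7 probe sets whose first symbol matched were left out because they carried several symbols.

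Complexes I to IV pass electrons from NADH and succinate to oxygen and pump protons across the inner mitochondrial membrane, and ATP synthase uses that gradient to make ATP. Complex II also belongs to the citrate cycle and pumps no protons. Neurons depend on this pathway for most of their ATP, and the interruption of oxygen supply in stroke stops it. The subunits measured here are all transcribed in the nucleus, while a small core set is encoded by mitochondrial DNA.

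The tissue was white and grey matter supplied by the middle cerebral artery, measured on 17 arrays. A pool of 6 brains was hybridised to each of 12 arrays, with 3 pools per group: saline controls (control pools), controls given AEOL 10150 (drug control pools), ischemia-reperfusion (ischemic pools) and ischemia-reperfusion with AEOL 10150 (treated ischemic pools). For 5 further arrays the RNA came from 1 brain with ischemia and AEOL 10150 (single treated brains, numbered 11, 12, 13, 14 and 16). The compound AEOL 10150 acts as a catalytic antioxidant. Tissue of controls was taken 6 h after the injection, and ischemic tissue after 1 h of ischemia, the intravenous drug where given, and 6 h of reperfusion. The sources used here give no strain, sex, age or dose, nor the vehicle of the untreated ischemic mice. The labels do not say whether pools came from separate experiments, so p-values concern the spread between these arrays, which may be technical. The title and description of drug control pool 1 and of treated ischemic pool 1 disagree about the drug, and brain 11 has the number 4 in its title.

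All 17 arrays were rescaled to a trimmed mean of 2500, and intensities below a floor of 109.5 were raised to it, which is 6.77 on the log2 scale. Levels below are log2 intensities on this scale, and differences are log2 differences between groups. A level of 1 probe set says nothing about that of another, so levels were compared only within a probe set. On 7 arrays (treated ischemic pools 2 and 3 and the 5 single brains) the deposited values were on another scale, with trimmed means of 129 to 210. On every array the summed marker intensity was at least 231450 for neurons, 114221 for astrocytes and 90710 for oligodendrocytes. That of 12 skeletal and heart muscle genes was 4489 to 9382. Among these only the myosin gene Myh2 was at the floor on every array, so muscle transcripts as a list were not absent. In bulk tissue, fewer cells of a type and less RNA per cell cannot be told apart.

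Member transcripts were mostly well above the floor. Of the 100 probe sets, 72 were above it on all 17 arrays, 74 on all 12 pools and 10 on none of the pools. The pool tests covered 86 members, those above the floor on at least 3 pools, and 14 were not tested: 8 of complex I, 4 of complex IV and 2 of ATP synthase. All 6 members of complex II and all 7 of complex III were above the floor on every array. Among the tissue-specific isoforms, Cox7a1, the muscle and heart form of a complex IV subunit, was at the floor on all 17 arrays. Cox7a2, the widely expressed form, was above it on all 17. Cox6a2, the muscle and heart form of subunit VIa, was above the floor on 15 of 17 arrays. In the control pools it measured 9.98, 10.88 and 8.45, in the drug control pools 9.62, 10.21 and 6.77, in the ischemic pools 10.17, 10.55 and 6.77, and in the treated ischemic pools 8.18, 9.67 and 10.43. The single brains ran from 10.47 to 11.04 with a median of 10.78, above all drug control and treated ischemic pools. Both floor values were those of pool 3, in the drug control and ischemic groups, and the pooled groups overlapped. Of 12 genes marking skeletal and heart muscle, 2 to 4 were at the floor on every array of a group, and the summed level was 5323.7 to 8180 in the drug control pools and 5373 to 7139 in the single brains.

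Promoters of 60 of the 73 genes were present in the RefSeq table (GRCm38.p6), each from 250 bases before to 50 after the start. Letters of 6 motifs were searched on both strands. Of these, the ones in capitals below are GCATGCG (the core of the site for NRF1, a factor known for driving respiratory chain genes) and CCGGAAG (a site for ETS factors such as GABP, also known as NRF2). The NRF1 letters were in 10 of 60 member windows (16.7%), against 3.64% of all 27025 windows and 5.77% of the 6573 windows of genes on the array. The ETS letters were in 17 of 60 (28.3%), against 9.12% and 15.7%, and in 4 of the 5 complex II windows. GGGCGGG, the SP1 box, was in 24 windows, against 25.8% of all and 44.4% of array genes. ATGGCGG, a YY1 site, was in 7 (11.7%), against 4.19% and 7.17%. TATAAA was in 6 windows, against 14.2% and 10.4%, and CCAAT was in 25 (41.7%), against 37.9% and 38.3%. A match describes these letters only. The 150 bases before the start are shown for 7 members from the comparisons below, 3 with the NRF1 letters, 3 with the ETS letters and Ndufc1 with neither, with matches in capitals, 5′ to 3′ along the gene:
Ndufa6 (chr15:82354292-82354441, minus strand): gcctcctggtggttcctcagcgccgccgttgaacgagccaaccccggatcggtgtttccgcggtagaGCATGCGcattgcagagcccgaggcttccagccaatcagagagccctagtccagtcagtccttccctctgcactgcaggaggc
Sdhb (chr4:140961121-140961270, plus strand): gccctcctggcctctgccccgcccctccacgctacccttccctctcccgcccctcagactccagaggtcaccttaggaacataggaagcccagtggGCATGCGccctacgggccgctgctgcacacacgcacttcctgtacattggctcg
Atp5k (chr5:108434400-108434549, minus strand): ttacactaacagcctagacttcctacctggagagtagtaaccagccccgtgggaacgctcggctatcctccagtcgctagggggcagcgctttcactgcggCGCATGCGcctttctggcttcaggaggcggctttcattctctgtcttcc
Sdhd (chr9:50603850-50603999, minus strand): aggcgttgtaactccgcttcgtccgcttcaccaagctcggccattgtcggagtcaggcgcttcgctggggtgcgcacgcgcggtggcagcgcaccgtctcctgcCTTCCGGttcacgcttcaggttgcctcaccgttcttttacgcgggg
Uqcrh (chr4:116075071-116075220, minus strand): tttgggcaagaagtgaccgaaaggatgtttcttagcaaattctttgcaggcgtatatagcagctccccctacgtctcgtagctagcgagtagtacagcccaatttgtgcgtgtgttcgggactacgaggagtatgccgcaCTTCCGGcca
Atp5e (chr2:174464102-174464251, minus strand): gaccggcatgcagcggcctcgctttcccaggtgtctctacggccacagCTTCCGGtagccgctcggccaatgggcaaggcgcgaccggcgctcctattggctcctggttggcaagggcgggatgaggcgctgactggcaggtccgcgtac
Ndufc1 (chr3:51408956-51409105, minus strand): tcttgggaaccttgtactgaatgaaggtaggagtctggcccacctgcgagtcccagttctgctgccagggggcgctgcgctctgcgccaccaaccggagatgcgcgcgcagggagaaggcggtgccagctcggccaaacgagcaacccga
In Atp5k the NRF1 letters occurred on both strands, in overlapping positions.

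Across the arrays, the members varied more by pool number than by group, as did probe sets in general. Over the 72 members above the floor on every array, the median difference from the mean of the control pools was -0.12, 0.29 and -0.17 in control pools 1 to 3, and -0.11, 0.01 and -0.23 in the drug control pools. It was 0.08, 0.06 and -0.21 in the ischemic pools and -0.17, 0.09 and 0.05 in the treated ischemic pools. Control pool 2 was highest, pool 3 of the control, drug control and ischemic groups was low, and all 4 pooled groups overlapped. The actin control probe sets gave a 3′ to 5′ ratio, which reflects how complete the labelled RNA was, of 1.15 to 1.19 in pool 3 of those groups and 1.33 to 2.14 in their pools 1 and 2. In treated ischemic pools 1 to 3 it was 1.68, 1.29 and 1.34, so treated ischemic pool 1 was low for the members at a high ratio. The part of RNA quality in the member levels was not tested. The actin ratio entered only as a covariate in an alternative fit of group differences. The single brains had values of 0.02, 0.13, -0.07, 0.07 and 0.07, a narrower range than the pools. Pool number accounted for a median of 37.0% of a member's variance and group for 15.9% (74 members above the floor on all pools), against 35.3% and 18.1% over 7420 probe sets. For the brightest 30 percent of these the shares were 43.1% and 16.9%, so the members' shares were near those of other probe sets. The median within-group SD of the members was 0.26, against 0.36 over all and 0.24 over the brightest 30 percent. Ndufv1, the complex I subunit that binds NADH and flavin, had the lowest, 0.10, and Atp5a1, the catalytic-core alpha subunit of ATP synthase, had 0.13.

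**Figure D1:**
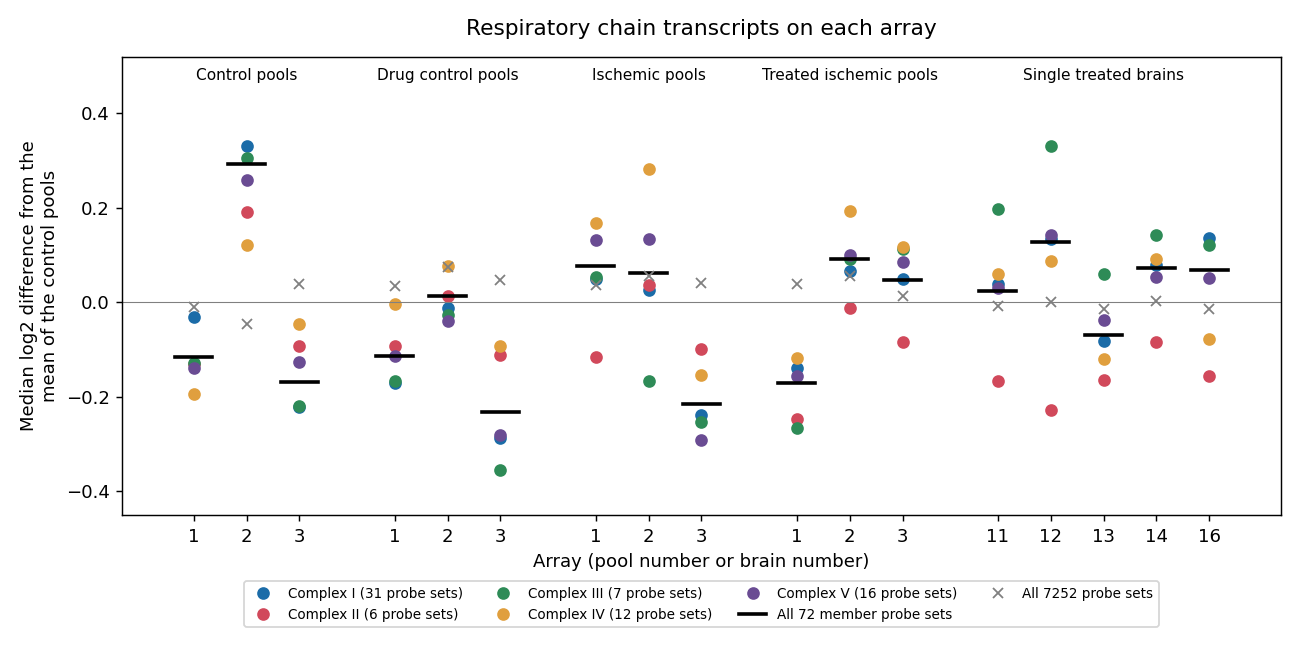
Median log2 difference from the mean of the control pools (vertical axis) for members of complexes I to V (coloured points), all 72 members (black bars) and all probe sets above the floor (crosses), on each of the 17 arrays. Control pool 2 sits highest at 0.29 and drug control pool 3 lowest at -0.23 for all members, and the groups overlap.

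Ischemia was compared with no ischemia over both drug arms, 6 pools against 6. No member passed the threshold in either direction (limma, adjusted p under 0.05; 0 of 86 also at an unadjusted p under 0.05, against 3.21% higher and 1.72% lower over all), where 0.439% of all 10259 tested probe sets were called higher and 0.00975% lower. The median difference over members was 0.03, against 0.01 over all probe sets, and 34 of 86 members lay below 0, against 47.5% of all. By complex the medians were 0.03 for I, -0.01 for II, 0.04 for III, -0.004 for IV and 0.07 for V. The 95% interval lay within a 1.5-fold change either way for 61 of 86 members, or 70.9%, against 34.1% of all probe sets tested. Among members above the floor on every pool this was 59 of 74 (79.7%), against 43.9% of all such probe sets. For these members a change of 1.5-fold or more was outside the interval, while for the other 25 tested members it was not.

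**Figure D2:**
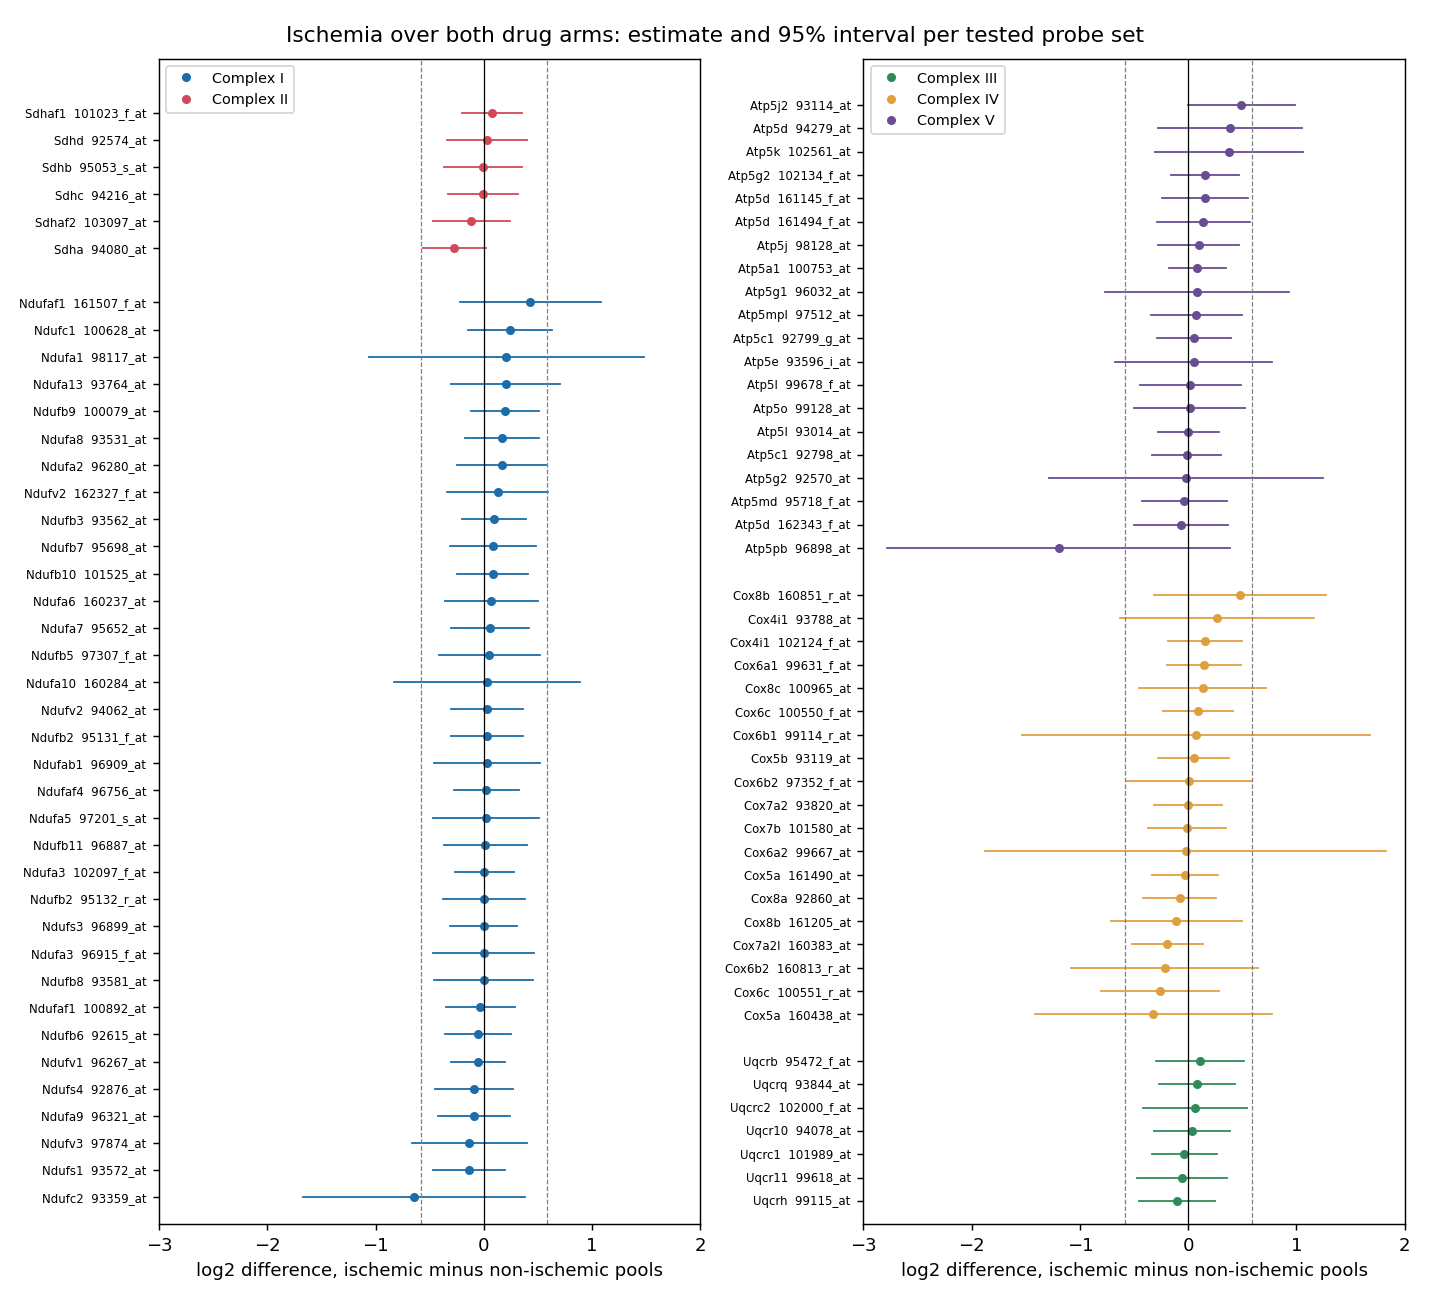
Estimated log2 difference, ischemic minus non-ischemic pools over both drug arms, with its 95% interval, for each of the 86 tested members by complex. Dashed lines mark a 1.5-fold change either way; 61 of the intervals lie between them and no member passed the threshold.

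The smallest p-values in that comparison belonged to a subunit of ATP synthase and one of complex II. Atp5j2, subunit f of the membrane part, measured 7.82, 8.14 and 8.47 in the control pools, 8.21, 8.96 and 8.54 in the drug control pools, 8.07, 9.07 and 8.94 in the ischemic pools and 9.26, 8.95 and 8.77 in the treated ischemic pools. The ischemic and non-ischemic values overlapped, with a difference of 0.49 (SE 0.22, limma adjusted p = 0.998). Sdha, the flavoprotein that oxidizes succinate, measured 12.51, 12.21 and 12.25 in the control pools, 12.63, 12.23 and 12.23 in the drug control pools, 12.28, 12.01 and 12.12 in the ischemic pools and 12.04, 11.85 and 12.13 in the treated ischemic pools. Every treated ischemic value lay below every drug control value, but the difference over both arms was -0.27 (SE 0.13, limma adjusted p = 1.00). The other complex II subunits were closer to 0: Sdhb, the iron-sulfur subunit, -0.01, Sdhc -0.01 and Sdhd, both membrane anchors, 0.03. The assembly factors Sdhaf1 and Sdhaf2 had 0.08 and -0.12.

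In complex III the differences ran from -0.10 for Uqcrh, the hinge protein, to 0.11 for Uqcrb, and all 7 intervals lay within 1.5-fold. The core proteins Uqcrc1 and Uqcrc2 had -0.03 and 0.06. In complex I, Ndufs1, the largest iron-sulfur core subunit, had -0.14, and Ndufc1, an accessory subunit of the membrane arm, 0.24. Ndufc2, at the floor on some pools of 3 groups, had -0.65 (SE 0.46), and 1 of the probe sets of the assembly factor Ndufaf1 0.43 (SE 0.29), while the other had -0.03. In complex IV the widely expressed Cox6a1 had 0.15 and Cox7a2 -0.004. Cox7a2l, which is known for binding complexes III and IV together, had -0.19. The probe sets of Cox5a, a matrix-side subunit, had -0.32 (SE 0.49) for the one above the floor on all 17 arrays and -0.03 (SE 0.14) for the one above it on 3 of 12 pools, whose small error reflects the floor. Those of Cox8b, the muscle form of subunit VIII, had 0.48 (SE 0.36) and -0.11 (SE 0.27). In ATP synthase the 4 tested probe sets of Atp5d, the delta subunit, ran from -0.06 to 0.38, 1 more being above the floor on 1 pool and not tested, and the c-ring subunit Atp5g1 had 0.08 (SE 0.38) and Atp5g2 0.16 (SE 0.14) from the probe set above the floor on all pools. Atp5pb, subunit b of ATP synthase, had the largest estimate, -1.20 (SE 0.71, limma adjusted p = 1.00), with 11.71, 10.93 and 6.77 in the ischemic pools, where pool 3 was at the floor.

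Ischemia without the drug gave no called member (limma, 0 of 86; background 0.214% higher and 0% lower), and 1 at an unadjusted p under 0.05, against 2.9% higher and 1.23% lower over all. It was Atp5k, subunit e of ATP synthase, with 9.67, 9.89 and 10.98 in the control pools and 11.14, 11.10 and 11.21 in the ischemic pools. The ischemic values were all above the control values, by 0.97 (SE 0.44, limma adjusted p = 1.00), but the drug control pools, at 10.62, 11.39 and 10.76, overlapped them. Groups did not overlap for 2 members above, Atp5k and Cox8a, and 2 below, Ndufb6 and Ndufs1, against 4.07% and 3% of all probe sets. Cox8a lay at or near the floor. Ischemia with the drug called no member (limma; background 0.0877% higher and 0% lower) and none at an unadjusted p under 0.05, against 2.07% higher and 1.37% lower over all. Its groups did not overlap for 2 members above, Ndufc1 and Ndufa13, and 2 below, Sdha and Atp5pb, against 3.75% and 3.64%.

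The median over members was -0.03 for ischemia without the drug (all probe sets 0.03) and 0.07 with it (-0.02). Without the drug 48 of 86 members lay below 0, against 45.9% of all probe sets, and with it 27 of 86, against 53.4%. Scaling arrays to 1 median moved all probe sets together. It put 67 of 86 members below 0 without the drug, with medians of -0.15 for members and -0.09 for all probe sets, and 53 of 86 over both arms, with medians of -0.03 and -0.04. Relative to all probe sets the members then stood at -0.07 without the drug, against -0.06 on the trimmed-mean scale, and at 0.01 over both arms on both scales. The difference between both ischemia responses, tested as an interaction, called no member (limma; background 0% each way). Its only member with an unadjusted p under 0.05, against 0.614% higher and 1.46% lower over all, was Cox8a (-0.70), near the floor. Of all members, 30 of 86 lay below 0, against 54.6% of all probe sets. With arrays scaled to 1 median it was 17 of 86 while the median of all probe sets rose from -0.04 to 0.10, and relative to that median the members stood at 0.16 and 0.15. In complex I 6 of 34 lay below 0, with a median of 0.19, against -0.04 over all probe sets tested. High control or treated ischemic pools and low drug control or ischemic pools all raise this difference. Relative to the mean of the control pools, complex I stood at -0.03, 0.33 and -0.22 in control pools 1 to 3. Its group means were 0.03 in the control, -0.16 in the drug control, -0.05 in the ischemic and -0.01 in the treated ischemic pools. Which group or array accounts for the difference was not tested. The intervals of the difference between both responses were wide: 0 of 86 lay within 1.5-fold, against 1.89% of all.

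The drug after ischemia called no member (limma; background 0% higher and 0.00975% lower) and none at an unadjusted p under 0.05, against 0.692% higher and 0.78% lower over all, with a median of 0.02. Groups did not overlap for 1 member, Cox8a, which was below, against 1.72% above and 2.11% below over all. The smallest p was that of Sdhaf1, which helps to insert the iron-sulfur clusters of complex II, at -0.35 (SE 0.17). The drug without ischemia called no member (limma; background 0.00975% higher and 0% lower) and 1 at an unadjusted p under 0.05, against 1.72% higher and 0.858% lower over all. That was 1 of the 2 probe sets of Cox4i1, the main form of subunit IV. It measured 7.13, 7.61 and 9.26 in the control pools and 9.24, 9.003 and 10.03 in the drug control pools, which overlapped, with a difference of 1.43 (SE 0.57, limma adjusted p = 1.00). The other probe set of the same gene gave 12.05, 12.43 and 12.16 against 12.22, 12.69 and 12.17, which overlapped, so the probe sets disagreed in size.

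The median over members for the drug without ischemia was -0.12, against 0.03 over all probe sets, and 58 of 86 lay below 0, against 45.7% of all. With arrays scaled to 1 median it was 69 of 86 while the median of all probe sets fell to -0.07, and relative to that median the members stood at -0.15 and -0.16. By complex it was -0.14 for I, -0.02 for II, -0.23 for III, 0.04 for IV and -0.14 for V, and all 7 members of complex III were below 0. Without control pool 2, the highest array for the members, the median over members was 0.003, and without drug control pool 3 it was -0.04. Ndufb6, an accessory subunit of the complex I membrane arm, had 13.99, 14.42 and 14.17 in the control pools and 13.89, 13.49 and 13.91 in the drug control pools, which did not overlap, and differed by -0.43 (SE 0.20, limma adjusted p = 1.00). Groups did not overlap for 3 members below (Ndufb6, Uqcrh and Atp5j) and 1 above (Atp5pb), against 1.92% and 2.73% of all.

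The single treated brains were compared with the drug control pools, in a fit of the drug control pools, treated ischemic pools and single brains. Of 86 members, 1 was called higher and 1 lower, where 1.57% and 1.65% of 10195 probe sets were called higher and lower. At that threshold the members' share was close to the background. At an unadjusted p under 0.05 (limma), members were more often higher and less often lower than all probe sets (10.5% higher and 15% lower). The members without overlap, counted below, leaned the same way. The number of brains per array differed between these groups and cannot be told apart from ischemia with the drug. The scale of the deposited values differed too, and only treated ischemic pool 1 against pools 2 and 3 separates it from the groups. Ndufc1 measured 12.79, 12.86 and 12.77 in the drug control pools and 13.49, 13.37, 13.20, 13.61 and 13.54 in the single brains. All single brains were above all drug control pools, by 0.64 (SE 0.14, 1.56-fold, limma adjusted p = 0.0373). Ndufc2, another accessory subunit of the membrane arm, measured 8.28, 8.91 and 8.41 in the drug control pools and was at the floor in 4 single brains, with 7.16 in brain 14. The difference was -1.68 (limma adjusted p = 0.0478), a value that depends on the floor. Treated ischemic pools minus drug control pools, in the fit of the pools, gave 0.38 for Ndufc1 and -0.55 for Ndufc2. Single brains minus treated ischemic pools gave 0.26 and -1.13. Ndufc1 lost its call without any 1 of the drug control pools (limma adjusted p = 0.0551 to 0.118) and without brain 11, 12, 14 or 16 (0.0707 to 0.0814). Ndufc2 lost it without any 1 of the drug control pools (0.0551 to 0.128), without treated ischemic pool 2 (0.0560) and without any 1 of the single brains (0.0778 to 0.0950). With the scale of the deposited values as a block, no member was called and the estimates were 0.58 for Ndufc1 and -0.34 for Ndufc2.

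**Figure D3:**
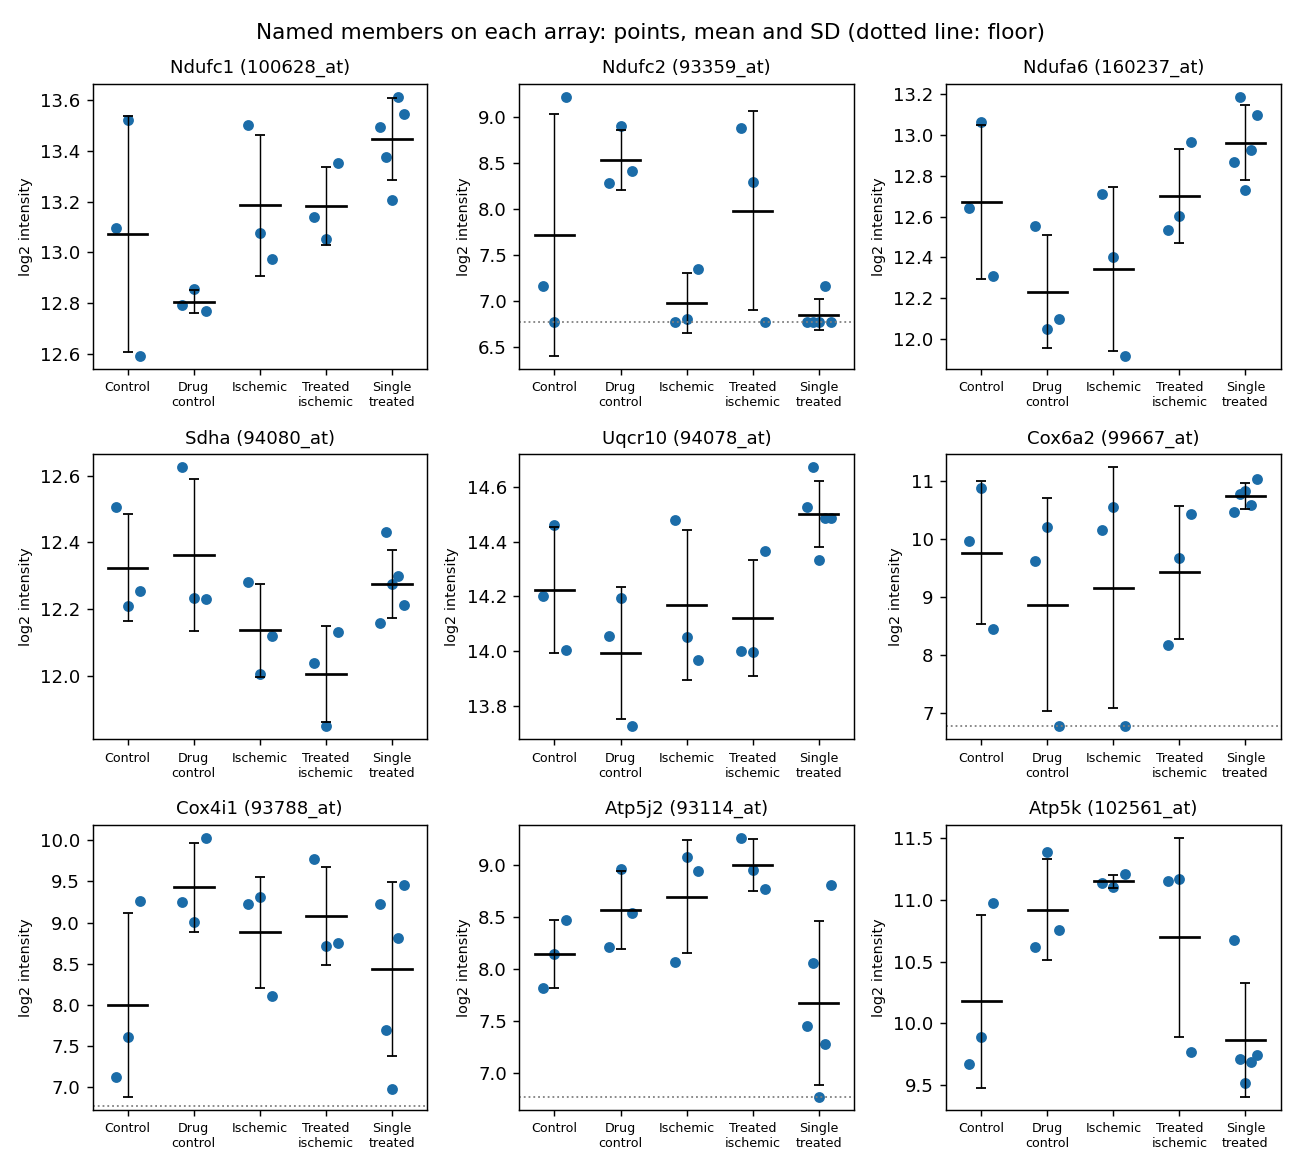
Log2 intensity (vertical axis) of 9 members in the 4 pooled groups and the single brains, with each array as a point, the group mean as a bar and the SD as whiskers; the dotted line marks the floor where a value comes near it. Ndufc1 is above all drug control pools in every single brain, and Ndufc2 is at the floor in 4 of the 5 single brains.

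Just outside the threshold lay members that were also higher in the single brains than in all drug control pools. Ndufa6, an accessory subunit of complex I, differed by 0.73 (SE 0.18, limma adjusted p = 0.0551), and measured 12.55, 12.05 and 12.10 against 12.73 to 13.19. Atp5e, the epsilon subunit of the ATP synthase stalk, differed by 0.90 (limma adjusted p = 0.0576), with 12.92, 12.65 and 12.15 against 13.32 to 13.54. Ndufb8 differed by 0.75 (limma adjusted p = 0.0602) and 1 probe set of Ndufb2 by 0.57 (limma adjusted p = 0.0639), while another Ndufb2 probe set gave 0.06. Further from the threshold, Uqcrq and Uqcr10, 2 small subunits of complex III, differed by 0.47 (limma adjusted p = 0.0835) and 0.51 (limma adjusted p = 0.0867). With the scale of the deposited values as a block, Ndufa6 had 0.48 (limma adjusted p = 0.821). Groups did not overlap for 19 members above and 5 below, against 8.65% and 11.7% of all probe sets.

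By complex, the median difference was 0.22 for I, -0.15 for II, 0.36 for III, -0.02 for IV and 0.06 for V, and 0.12 over all members against -0.05 over all probe sets. The complex II median includes the assembly factors Sdhaf1 (-0.28) and Sdhaf2 (-0.22). Its subunits went both ways, with -0.31 for Sdhc, -0.09 for Sdha, 0.07 for Sdhd and 0.12 for Sdhb. Below 0 lay 33 of 86 members, against 54.6% of all. The summed astrocyte marker intensity was 134543 to 162980 in the single brains and 124826 to 132253 in the drug control pools, which did not overlap, and that of oligodendrocyte markers 114413 to 160297 and 91054 to 114484, which overlapped. The part of these cells in the differences was not tested. Complex II was the 1 complex whose median lay below the mean of the control pools in every single brain, at -0.23 to -0.08. It also lay below that mean in control pools 1 and 3 (-0.13 and -0.09), with 0.19 in control pool 2. In treated ischemic pools 1 to 3 it was -0.25, -0.01 and -0.08, so the single brains lay within the range of the pools. With the scale set as a block the median differences from the drug control pools were -0.03, -0.28, 0.18, -0.07 and -0.15 for complexes I to V. Over all members the median was -0.08, against -0.02 over all probe sets. Against the treated ischemic pools the single brains called no member (limma; background 0.0294% each way), and 11 at an unadjusted p under 0.05 (6 higher and 5 lower, against 4.36% and 7.77%). The smallest p was that of Atp5j2, at -1.32 (SE 0.40, limma adjusted p = 0.341).

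**Figure D4:**
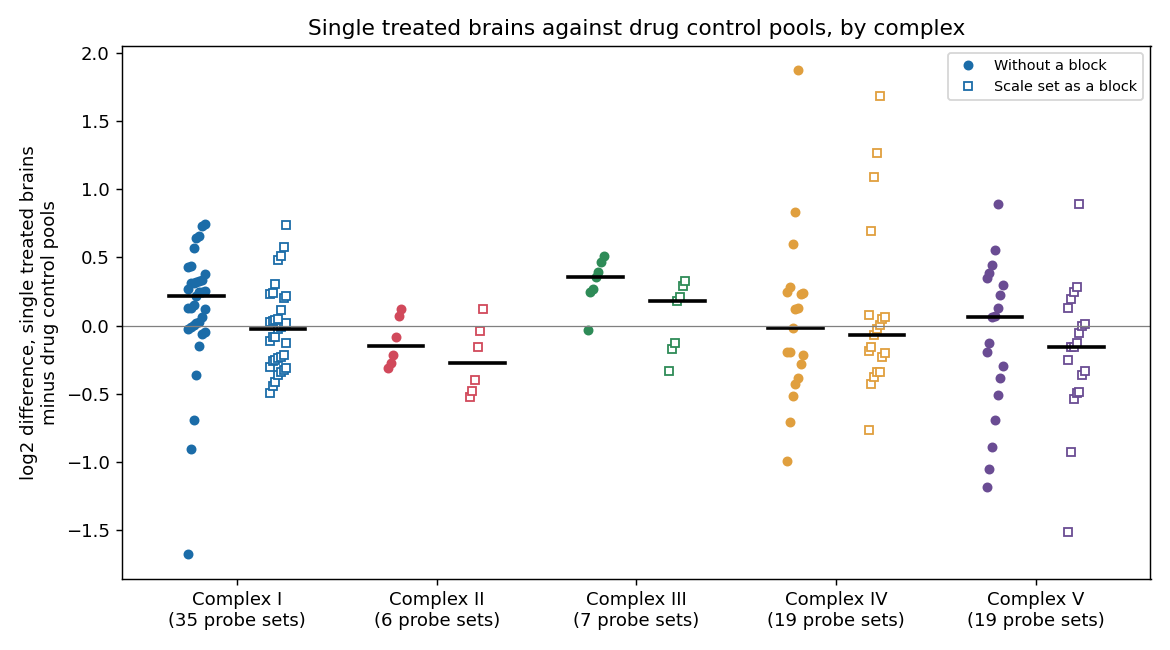
Log2 difference, single treated brains minus drug control pools (vertical axis), for each tested member by complex, without a block (filled) and with the scale of the deposited values as a block (open); bars are medians. The complex III median is 0.36 without the block and 0.18 with it, and that of complex I falls from 0.22 to -0.03.

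Other mitochondrial genes were read as lists for ischemia over both drug arms, and none of their genes passed the threshold (limma), while 2 were higher and 2 lower at an unadjusted p under 0.05, against 3.21% and 1.72% of all probe sets. The citrate cycle list (15 tested) had a median of -0.02, mitochondrial ribosomal proteins (29) 0.05, other respiratory chain and carrier genes (17) 0.05 and assembly factors (9) -0.05. The import and chaperone list (18) had a median of 0.14. Its smallest adjusted p was that of Hspd1, the mitochondrial chaperonin, at 0.54 (SE 0.11, limma adjusted p = 0.0850). Its partner Hspe1 had 0.74 (limma adjusted p = 0.451). Regulators of mitochondrial gene expression (13) had a median of -0.23. The neuron markers were below 0 for 8 of 10, against 47.5% of all probe sets, with a median of -0.14. Their summed intensity was 261408 to 297688 in the control pools and 249492 to 279661 in the ischemic pools. With the drug it was 231450 to 299836 in the drug control pools and 257928 to 269236 in the treated ischemic pools. The ranges overlapped in both arms. Neutrophil markers had a median of 0.55, with 1 of 7 called (0.439% of all probe sets were called higher), and red blood cell markers 1.25. The part of these cells in the member differences was not tested.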

How the data were processed

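RNA from mouse brain was measured on 17 arrays, 12 of pools of 6 brains and 5 of single brains. The deposited values are linear intensities, 1 per probe set and array; how the authors computed and scaled them was not stated in these sources. Values below 0 made up 15.2% to 19.3% of an array. Each array was scaled to a 2-98% trimmed mean of 2500, floored at the 25th percentile of the pools (109.5) and log2 transformed. Tests used probe sets that exceeded the floor on 3 or more arrays, with limma 3.58.1 in R 4.3.3 (10259 for pools, with 8 residual and 2.23 prior degrees of freedom, and 10195 for the fit with single brains), with Benjamini-Hochberg adjustment over all of them and a threshold of 0.05. The 66 array controls were left out of tests.

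Groups came from titles and, for single brains, from descriptions. The genes named are those past the threshold, the 2 highest and 2 lowest of each complex for ischemia over both drug arms, listed isoforms, the 3 smallest p in each comparison and the complex II subunits. Uqcrq, Uqcr10, Ndufb8, Ndufb2, the promoter examples without such a rank and the members whose groups did not overlap were named after their values were seen. Members and lists were chosen with earlier results of these data known. Same-numbered pools of the control, drug control and ischemic groups deviated together (correlations of 0.411 to 0.669). Those of the treated ischemic group with them gave 0.0860 to 0.291 for pool 1, 0.330 to 0.525 for pool 2 and -0.342 to -0.0907 for pool 3. The numbers may thus pair the first 3 groups only. The labels do not say what a pool number marks, and the reported fits used no block for it. Their errors therefore include any shift shared by same-numbered pools. A replicate block was run only as an alternative. The description of treated ischemic pool 2 calls it replicate 1, so the numbering of that group is in doubt, and shares of variance by pool number rest on it. Alternatives were other scalings, floors, filters and covariates, groups from descriptions, and leaving out arrays. A floor at the 10th percentile, an intensity of -139, has no log and was not run; the 20th percentile was used instead, chosen after seeing the data, as was leaving out the arrays with disagreeing labels in the fit of single brains. The scripts were tested on simulated data.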

Additional observations from a re-analysis of the deposited data

Results flagged for a closer look

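Among the single brains, 45 member probe sets picked by the rule for named genes were examined for an array far from the other 4, and chance flags about 1 in 20 such groups. In 5 of them the highest or the lowest brain stood apart, measured by its gap to the nearest other brain over the range of the 5. Atp5k was 10.68 in brain 11, Ndufb6 14.41 in brain 12 and Atp5e 13.32 in brain 13. Cox8a was 6.78 in brain 13 and Ndufc2 7.16 in brain 14, where the other 4 brains were at the floor, so that the gap fills the range by construction. Those flags, of Cox8a at hardly more than the floor in particular, reflect the floor.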

How the results depend on the processing

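In the comparisons of pools, no member was called under any of the 25 alternatives, which include the replicate block (0 called in each). Without rescaling, the median member difference followed the deposited scales: -2.54 for ischemia with the drug, -2.60 for the drug after ischemia, -2.47 for the difference between both responses, -1.28 for ischemia over both drug arms, -3.75 for single brains minus drug control pools and -1.20 for single brains minus treated ischemic pools; the median of all probe sets moved alike (-2.60, -2.60, -2.62, -1.27, -3.85 and -1.25). Ndufc1 and Ndufa6 then reversed, to -3.24 and -3.15, and 86 members were called against drug control pools. That count, 2 as reported, was 1 with quantile normalization, with 1 median, with the floor at the 20th percentile, with no filter and with the actin ratio as a covariate, 5 with the floor at the 40th percentile and with members above the floor on all arrays, 8 with an intensity trend, 7 without the arrays with disagreeing labels, and 0 with the scale set as a block, whose median was -0.082. Leaving out 1 array gave 0 to 6: 5 without drug control pool 1, 0 without pool 2 or 3, 6 without treated ischemic pool 3, 1 without brain 13 and 0 without any other brain. Against treated ischemic pools it gave 0 to 2, with 2 without treated ischemic pool 3. In the fit as reported, 1.57% and 1.65% of all probe sets were called higher and lower against drug control pools. With the scale set as a block, 4 of all probe sets were called there. Shares over all probe sets under the other alternatives are not given, so the counts describe how the calls vary and are no result about the members. Array number and the floor limit precision.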
